A study of Mus musculus with 2 samples.

Results

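The genes of the ER to Golgi secretory machinery were described in mouse cells generated with a small molecule and in the cells they came from. Members were taken by gene symbol alone, with name stems for the signal recognition particle, the translocation channel, the COPII and COPI coats, cargo receptors, Arf GTPases and the tethers of the Golgi. This gave 89 genes, read by 101 probes, out of 11484 named genes on the array. The rule itself uses no measured value, but it was made with earlier results of these data known. Of the 89 members, 85 belong to 5 role groups of the pathway, and 4 share a name stem only. The 4 are Sec1, which encodes a fucosyltransferase, and the Sec14l1, Sec14l2 and Sec14l4 genes of a family of lipid-binding proteins.

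Both samples were cells of embryonic origin from mice labelled C57/ICR. The small-molecule-generated stem cells (generated cells) were at passage 5 and grown in ES medium, the medium of embryonic stem cells. The parental cells, cultured in FBS (fetal bovine serum) medium, were at passage 1. The agent is not named in the labels, and the design text of the series, which calls one of the samples PEG cells, speaks of 3 replicates per sample. Here 1 column of intensities per sample was analysed, so passage, medium and treatment differed together, no test between the groups was possible, and the precision is limited by the number of arrays. The values came from a 1-colour oligonucleotide array, and the median intensity over 13989 probes was 305 in the generated cells and 304 in the parental cells.

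Proteins that are secreted or sit in membranes start on ribosomes that the signal recognition particle brings to the endoplasmic reticulum (ER). They pass the Sec61 channel there, and signal peptidase removes their signal sequence. COPII vesicles then carry them out of the ER with the help of cargo receptors, COPI vesicles return escaped residents, and tethers and SNARE proteins bring vesicles to the Golgi for fusion. Fibroblasts that deposit collagen and other matrix proteins use this route heavily.

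A difference of 2-fold or more was taken as the size rule, on the log2 scale of the mean over a gene's probes, for genes above a floor in at least 1 sample. The floor was the 25th percentile of each column, an intensity of 93.4 in the generated cells and 93.8 in the parental cells. Of the 89 members 87 passed it, and Mia3 and Sec31b were under it in both samples. Among the 87 members, 36 (41.4%) were lower by 2-fold or more in the generated cells, where the share over 9766 genes was 22.6%. Only 2 members (2.30%) were higher by 2-fold or more, where the share over all genes was 22.1%. The median log2 difference, generated minus parental, was -0.74 over the members and 0.12 over all genes above the floor. Of the 87 members 67 had a negative difference, 77.0% against 45.8% of all genes. At 4-fold or more 18 members were lower and 0 were higher, and the shares over all genes were 10.3% lower and 7.52% higher. Plotted against each other, the intensities of the members lie mostly on the parental side of the diagonal.

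**Figure D1:**
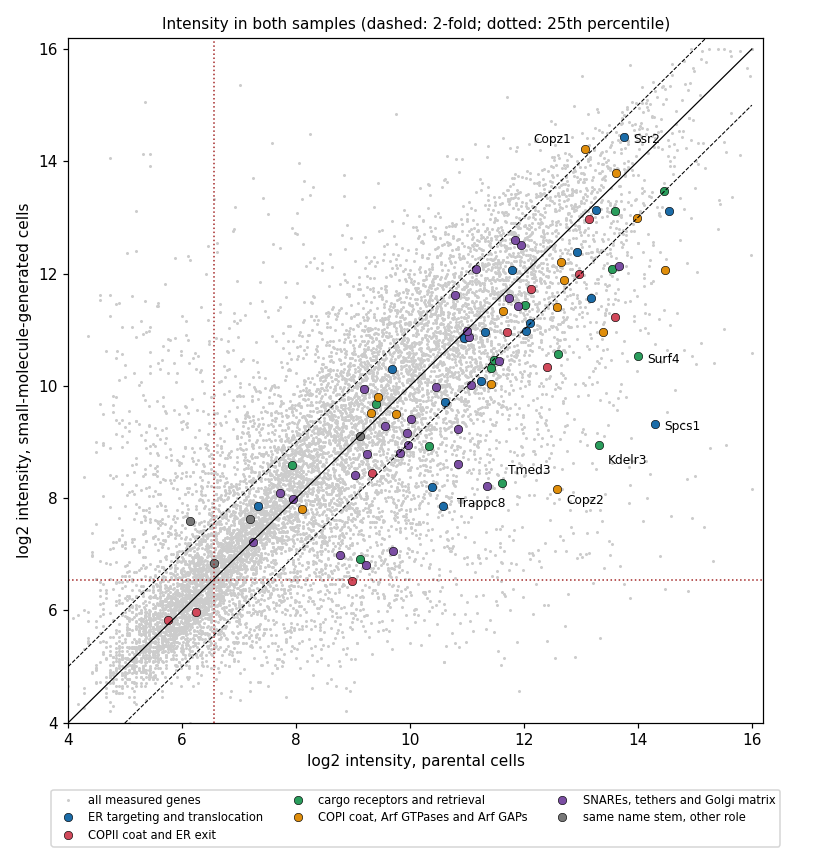
Log2 intensity of every measured gene (grey) and of the members (coloured by role) in the generated cells (vertical axis) and the parental cells (horizontal axis), with dashed lines at 2-fold and dotted lines at the 25th percentile of each column. Of the 87 members above the floor, 36 lie under the lower dashed line and 2 above the upper one.

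Cell type markers differed between the generated and the parental cells as well. The marker lists, of 10 genes per cell type, were chosen with earlier results of these data known, so the counts are a description. Listed genes that were not measured are left out. Of 9 measured pluripotency markers 8 were higher by 2-fold or more. Nanog was the exception, at 94.7 in the generated cells and under the floor at 77.7 in the parental cells. Pou5f1 was at 639 in the generated cells and under the floor at 37.8 in the parental cells, at least 6.82-fold higher. The summed intensity of the 9 was 124119 in the generated cells and 770 in the parental cells, where 7 of them were under the floor. Such sums add probes that are not on a common scale, so bright probes weigh most. All 6 measured markers of fibroblasts and mesenchyme were lower, with sums of 894 in the generated cells and 160123 in the parental cells. Of 5 measured macrophage markers 4 were lower (sums of 738 in the generated cells and 6442 in the parental cells), the fifth being Ptprc at 118 in the generated cells and 165 in the parental cells. No marker was listed at 0, and the part of the cell types in the differences of the secretory genes was not tested. In such bulk samples, fewer cells of a type and less RNA per cell cannot be told apart.

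Before the role groups are described, the error of a single probe is needed, since no spread between cultures was at hand. Across 612 genes with a pair of probes above the floor, single probes scattered around the mean of their gene with an SD of 1.05 in log2 difference, which is 2.07-fold. Members near 2-fold therefore lie within that error. Calls further past 2-fold that rest on 1 probe carry the same error and have no other probe beside them. Of the 36 lower members 18 were lower by 4-fold or more. Tmed4 (2.003-fold lower), Golga2 (2.01-fold), Copb2 (2.01-fold) and Trappc3 (2.04-fold) were just past 2-fold, and Tmed9 (1.995-fold), Srprb (1.97-fold) and Sar1a (1.96-fold) were just short of it.

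Promoter sequences are shown for the members that hold the 8 letters of a site known to be bound by the ER stress factors ATF6 and XBP1. This motif was picked out of 7 after the counts and the members' values were seen, so its shares are a description and support nothing about the differences. RefSeq promoters (build GRCm38.p6, 250 bases before the start site and 50 after) were matched for 74 of the 89 members, by gene identifier. In this window TGACGTGG or its reverse complement occurred in 5 of 74 members (6.76%), in 0.906% of 9162 measured genes and in 0.676% of 32851 promoters. The 5 were Kdelr3, Sec23a, Copb1, Copb2 and Arf1, printed 5′ to 3′ on the strand of the gene with the match in capitals.
Kdelr3, chr15:79516158-79516457, plus strand: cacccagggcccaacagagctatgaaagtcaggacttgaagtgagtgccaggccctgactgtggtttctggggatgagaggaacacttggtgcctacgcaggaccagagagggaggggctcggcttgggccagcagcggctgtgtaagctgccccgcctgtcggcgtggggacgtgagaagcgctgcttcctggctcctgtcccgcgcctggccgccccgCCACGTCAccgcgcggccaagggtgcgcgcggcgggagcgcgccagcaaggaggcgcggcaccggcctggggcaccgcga
Sec23a, chr12:59011968-59012267, minus strand: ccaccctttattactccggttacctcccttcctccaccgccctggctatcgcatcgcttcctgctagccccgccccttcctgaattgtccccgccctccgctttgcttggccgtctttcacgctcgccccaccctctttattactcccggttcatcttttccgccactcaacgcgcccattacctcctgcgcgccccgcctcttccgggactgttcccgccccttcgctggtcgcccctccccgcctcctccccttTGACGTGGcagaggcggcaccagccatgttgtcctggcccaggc
Copb1, chr7:114254631-114254930, minus strand: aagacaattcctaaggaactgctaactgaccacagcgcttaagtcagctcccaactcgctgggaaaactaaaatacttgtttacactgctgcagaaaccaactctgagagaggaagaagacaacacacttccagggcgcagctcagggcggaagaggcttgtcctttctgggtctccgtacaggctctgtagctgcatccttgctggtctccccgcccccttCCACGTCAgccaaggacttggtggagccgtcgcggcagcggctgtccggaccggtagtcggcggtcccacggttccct
Copb2, chr9:98563481-98563780, plus strand: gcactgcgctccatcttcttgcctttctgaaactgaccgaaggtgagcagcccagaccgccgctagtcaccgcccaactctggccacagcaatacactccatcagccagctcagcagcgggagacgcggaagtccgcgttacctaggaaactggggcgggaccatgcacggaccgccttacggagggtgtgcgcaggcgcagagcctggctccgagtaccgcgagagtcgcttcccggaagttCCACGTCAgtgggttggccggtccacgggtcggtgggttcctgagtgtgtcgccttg
Arf1, chr11:59228218-59228517, minus strand: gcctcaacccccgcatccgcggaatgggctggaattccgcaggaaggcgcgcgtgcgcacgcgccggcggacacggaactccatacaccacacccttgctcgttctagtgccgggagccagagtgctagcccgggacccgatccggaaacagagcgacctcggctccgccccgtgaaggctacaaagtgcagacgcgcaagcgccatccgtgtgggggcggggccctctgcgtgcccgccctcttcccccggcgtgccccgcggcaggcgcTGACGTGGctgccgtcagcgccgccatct

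The match began 30 bases upstream of the start site in Kdelr3, 28 in Copb1 and 7 in Copb2, and at base 7 after the start in Sec23a. In Arf1 it began at base 22 after the start shown, and 84 bases upstream of another annotated start. The shorter TGACGTG, which lies within those 8 letters, was found in 8 of 74 members (10.8%) and in 2.85% of the measured genes, Golga1, Mia3 and Srpr being the further ones. Other motifs were searched on both strands in the same way. The ER stress elements ERSE and ERSE-II were in 0 of 74 members, and in 0.164% and 0.0764% of the measured genes. TGACGTCA was in 1 member (Cope, 1.35%) and in 3.29% of the genes, CCACG in 47 members (63.5%) and 48.6% of the genes, and CCAAT in 33 members (44.6%) and 42.5% of the genes. A match describes these letters and is no evidence of binding.

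Of the 17 genes of ER targeting and translocation 7 (41.2%) were lower by 2-fold or more, none was higher, and the median log2 difference was -0.89. For this and the later groups, the shares over all genes above the floor were 22.6% lower and 22.1% higher. Spcs1, a small subunit of signal peptidase, had the largest difference of all members, with an intensity of 641 in the generated cells and 20122 in the parental cells (31.4-fold lower). Its partner subunit Spcs3 was at 3040.3 in the generated cells and 9304 in the parental cells, 3.06-fold lower. The catalytic subunit Sec11c, at 1995 in the generated cells and 2537 in the parental cells, and Spcs2, at 233 in the generated cells and 160.1 in the parental cells, differed by less than 2-fold. The genes of this 1 complex thus ran from a log2 difference of -4.97 in Spcs1 to 0.54 in Spcs2.

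Of the 5 genes for the Sec61 channel and its partners, Sec62 and Sec63 passed 2-fold and the channel subunits did not. Sec63, which brings the lumenal chaperone BiP to the channel, was 6.62-fold lower, at 232 in the generated cells and 1536 in the parental cells. Sec62, its partner in translocation after synthesis, was 2.24-fold lower (1084 in generated and 2428 in parental cells), a call lost with its brighter probe alone (log2 difference -0.67). Of the channel subunits, Sec61a1 was at 8963 in the generated cells and 9849 in the parental cells, and Sec61b at 1257 in the generated cells and 827 in the parental cells, a log2 difference of 0.60. Sec61a2 had a log2 difference of 0.28.

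Among the genes of the signal recognition particle, Srp9, which slows elongation together with its partner Srp14, was 4.52-fold lower. Its intensity was 295 in the generated cells and 1334 in the parental cells. Srp72 was 2.09-fold lower (2017 in generated and 4219 in parental cells), and Srp68, which binds the same RNA beside it, had a log2 difference of -0.54. The receptor subunits Srpr and Srprb had differences of -0.09 and -0.98. Within the TRAP complex, which assists the channel, Ssr4 was 2.69-fold lower, at 8831 in the generated cells and 23784 in the parental cells. Ssr2 stood the other way, at 22069 in the generated cells and 13787 in the parental cells, 1.60-fold higher and inside the size rule. Ssr1 had a log2 difference of -0.89.

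Of the 8 COPII and ER exit genes above the floor 3 were lower by 2-fold or more, none was higher, and the median log2 difference was -0.93. The other 5 did not pass, from Sar1b at -0.17 to Sar1a at -0.97, the last a mean of 2 probes with opposite signs. Sec31a, the outer coat protein, was at 2392 in the generated cells and 12403 in the parental cells, 5.18-fold lower. Sec23a, an inner coat protein that stimulates the GTPase SAR1, was at 1284 in the generated cells and 5411 in the parental cells, 4.21-fold lower. Sec23ip, whose protein binds SEC23, was under the floor in the generated cells at 91.7, against 503 in the parental cells, and was at least 5.38-fold lower. The cargo adaptor genes Sec24a and Sec24b had similar log2 differences of -0.74 and -0.89, and the scaffold gene Sec16a one of -0.41. Mia3, which encodes TANGO1, a receptor for the export of collagen, was dim in both samples (63.1 in generated and 75.8 in parental cells) and was given no fold.

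Cargo receptors and retrieval factors had the lowest median of the role groups, -1.25, and 9 of 14 were lower by 2-fold or more with none higher. Kdelr3, one of the receptors that return ER residents bearing the KDEL signal, was at 491 in the generated cells and 10162 in the parental cells, 20.7-fold lower. Its paralog Kdelr1 differed less, at 4329 in the generated cells and 11883 in the parental cells, 2.74-fold lower. Surf4, a receptor for soluble cargo, was 11.2-fold lower, with 1471 in the generated cells and 16492 in the parental cells. Lman1, the lectin that carries clotting factors out of the ER, was 4.10-fold lower (1515 in generated and 6214 in parental cells). The other lectin genes differed less, with log2 differences of -0.57 for Lman2 and 0.27 for Lman2l. Ergic1, a protein of the intermediate compartment, was 2.14-fold lower (1282 in generated and 2743 in parental cells), and its relative Ergic3 had a log2 difference of 0.67.

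Of the genes with the stem Tmed, most of which encode p24 proteins that cycle between ER and Golgi in vesicles of both coats, 6 were measured. Of these 4 were lower by 2-fold or more and none higher. Tmed3 was 10.2-fold lower, at 308 in the generated cells and 3139.6 in the parental cells. Tmed5 was 4.63-fold lower (121 in generated and 559.7 in parental cells) and Tmed8 2.66-fold lower (487 in generated and 1297 in parental cells). Tmed4 was at 1416 in the generated cells and 2835 in the parental cells, and its call was lost with an offset of 50 and with probe classes centred apart (log2 differences of -0.98 and -0.87). Tmed9 was at 11301 in the generated cells and 22547 in the parental cells, just short of 2-fold, and Tmed10 had a log2 difference of -0.50.

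**Figure D2:**
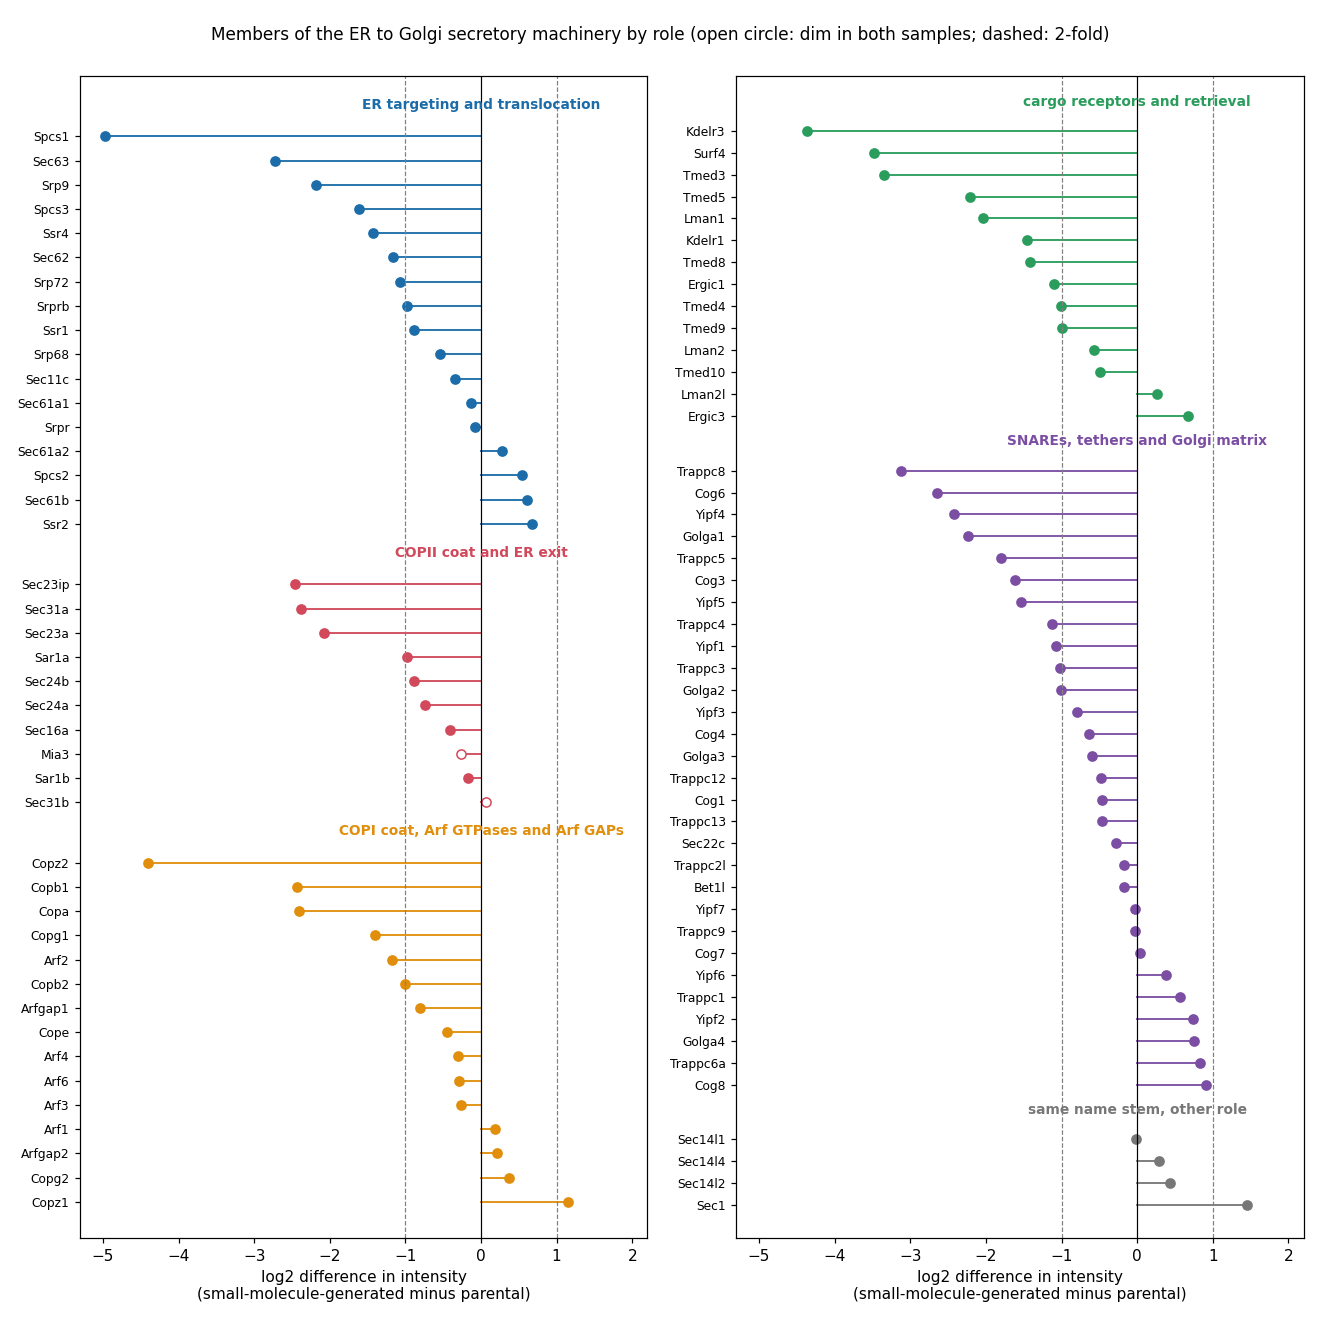
Log2 difference in intensity (generated minus parental cells, horizontal axis) of each of the 89 members, grouped by role, with dashed lines at 2-fold and open circles for the 2 members dim in both samples. Spcs1, Copz2, Kdelr3, Surf4, Tmed3 and Trappc8 reach furthest to the lower side, and Copz1 and Sec1 lie past 2-fold on the higher side.

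Of 8 measured subunits of the COPI coat 5 were lower by 2-fold or more and 1 was higher. Copa, the alpha subunit, was at 4289 in the generated cells and 22810 in the parental cells, 5.32-fold lower. Copb1, the beta subunit, was at 2002 in the generated cells and 10771 in the parental cells (5.38-fold lower), and Copb2, the beta-prime subunit, at 8093 in the generated cells and 16289.9 in the parental cells (2.01-fold lower, and a log2 difference of -0.99 with probe classes centred apart). Cope, the epsilon subunit, had a log2 difference of -0.45.

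Of the coat's subunits, zeta and gamma had 2 measured forms each, while Copb1 and Copb2 above encode different subunits. Copz2, the second form of the zeta subunit, was at 287 in the generated cells and 6104 in the parental cells, 21.2-fold lower. Copz1, the common form, was at 19033 in the generated cells and 8603 in the parental cells, 2.21-fold higher. That call was lost after intensity-dependent centring (log2 difference 0.91) and with probe classes centred apart (0.99), while the sign stayed positive in each alternative run. Copz2 and Copg1 were read by probes of the class mMC, and Copz1 and Copg2 by probes of the class PH_mM. The classes differ in their medians over all probes above the floor (-0.0040 for mMC and 0.28 for PH_mM). Centring the classes apart used other medians, taken over all probes of a class, dim ones included. The gap between the 2 zeta genes was -5.55 on the log2 scale, Copz2 minus Copz1. Of the gamma subunits, Copg1 was 2.65-fold lower, at 1041 in the generated cells and 2756 in the parental cells, and Copg2 was at 894 in the generated cells and 689.9 in the parental cells, 1.30-fold higher and inside the size rule.

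Of 5 measured genes for Arf GTPases, some of which recruit the COPI coat, 4 were within 2-fold. The share lower by 2-fold or more, 20%, was near the 22.6% over all genes above the floor. Arf2 was 2.27-fold lower (2697 in generated and 6110.4 in parental cells), and Arf1, Arf3, Arf4 and Arf6 lay between log2 differences of -0.31 and 0.19. Arf1, at 14243 in the generated cells and 12515 in the parental cells, had a log2 difference of 0.19 that was -0.05 after intensity-dependent centring. The genes of their activating proteins, Arfgap1 and Arfgap2, had log2 differences of -0.81 and 0.21. In the SAR1 pair that builds the COPII coat, Sar1b was at 7986 in the generated cells and 8999 in the parental cells, and Sar1a, at 4084 in the generated cells and 8016 in the parental cells, was read by 2 probes that disagreed.

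**Figure D3:**
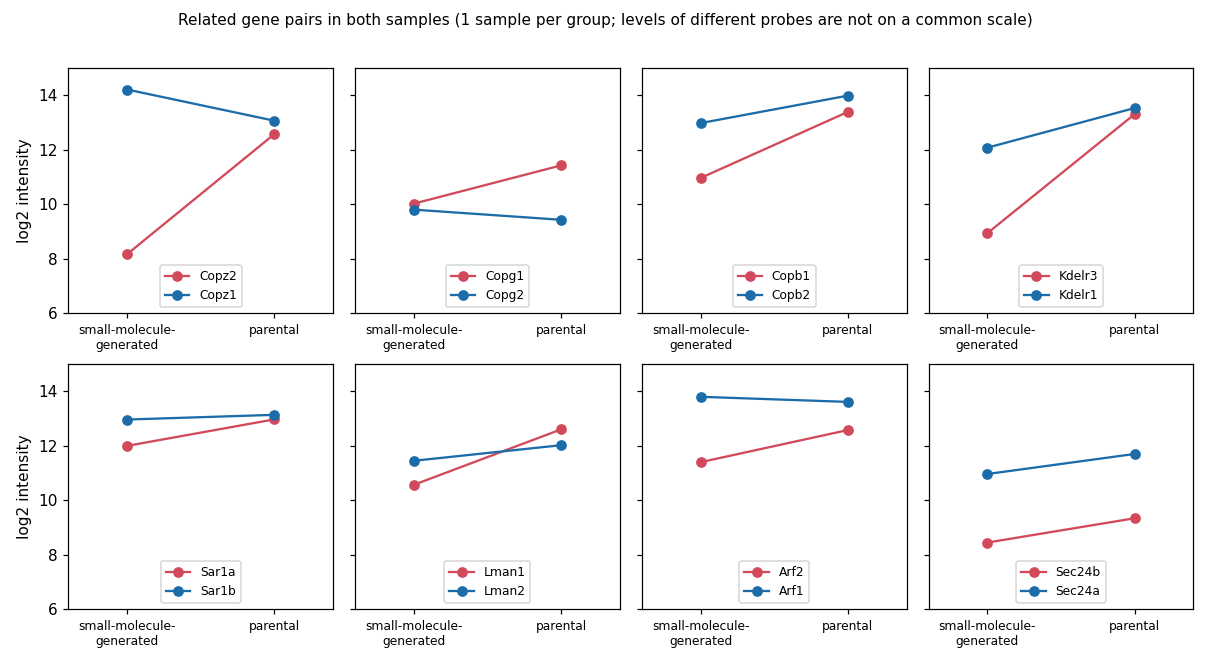
Log2 intensity of 8 pairs of related genes in the generated cells (left of each panel) and the parental cells (right), 1 sample per group, where only the slope of a line and not its height can be set against the other line. Copz2 and Copz1 stand at log2 differences of -4.41 and 1.15 and Kdelr3 and Kdelr1 at -4.37 and -1.46, and in both pairs the first gene was read by an mMC probe and the other by a PH_mM probe.

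SNAREs, tethers and proteins of the Golgi matrix made up the largest role group, with 11 of 29 genes lower by 2-fold or more, none higher and a median log2 difference of -0.47. Of 10 TRAPP subunits, which form a tether and exchange factor for RAB1, 4 were lower. Trappc8 was at 299 in the generated cells and 2614 in the parental cells, 8.74-fold lower. Trappc5 (126 in generated and 439 in parental cells) was 3.48-fold lower and Trappc4 (1389 in generated and 3039.6 in parental cells) 2.19-fold lower. Trappc3 was 2.04-fold lower, a call lost with its brighter probe alone (log2 difference -0.53), with an offset of 50 (-0.76) and with probe classes centred apart (-0.95). The dimmer probe of Trappc3 was under the floor at 55.9 in the generated cells and at 160 in the parental cells, at least 1.71-fold lower. On the other side Trappc6a, at 3128 in the generated cells and 1763 in the parental cells, was 1.77-fold higher, inside the size rule, and Trappc1 had a log2 difference of 0.57.

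The COG complex tethers vesicles within the Golgi, and 2 of its 6 measured subunits (33.3%) were lower by 2-fold or more. The share over all genes above the floor was 22.6%. Cog6 was at 134 in the generated cells and 836 in the parental cells, 6.24-fold lower, and Cog3 at 602 in the generated cells and 1842 in the parental cells, 3.06-fold lower. Cog8 lay on the higher side, at 4307 in the generated cells and 2284 in the parental cells (1.89-fold), and Cog1, Cog4 and Cog7 lay between log2 differences of -0.63 and 0.04. Golgins are coiled-coil tethers of the Golgi membrane. Golga1 was 4.72-fold lower (389.7 in generated and 1839 in parental cells) and Golga2 2.01-fold lower (449 in generated and 903 in parental cells), the second call being lost with an offset of 50 (log2 difference -0.93) and with probe classes centred apart (-0.99). Golga4 was at 6220.2 in the generated cells and 3686 in the parental cells, 1.69-fold higher.

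Among 7 Yip family genes, which encode membrane proteins of the early secretory pathway, Yipf4, Yipf5 and Yipf1 were lower by 2-fold or more. Yipf5 was at 4496 in the generated cells and 12999.6 in the parental cells, 2.89-fold lower, and Yipf1 at 1030.5 in the generated cells and 2159.8 in the parental cells, 2.10-fold lower. Yipf2 was 1.67-fold higher, at 979.7 in the generated cells and 588 in the parental cells. The SNARE gene Bet1l had a log2 difference of -0.17, and Sec22c, placed in this group by its name stem, one of -0.28.

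**Figure D4:**
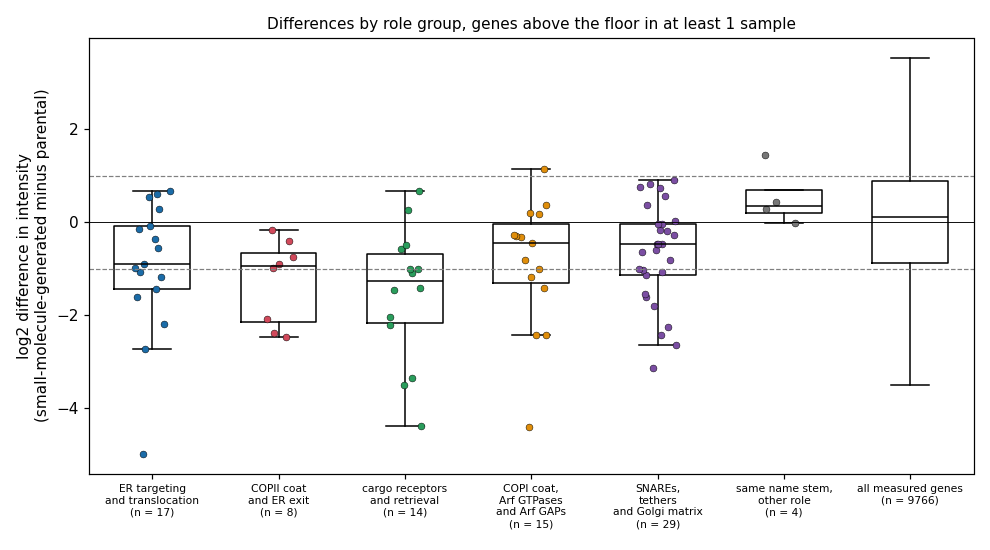
Log2 difference (generated minus parental cells) of the members above the floor, as points over boxes by role group (box from the 25th to the 75th percentile, line at the median, whiskers to 1.5 times the box), beside all 9766 genes above the floor. The 5 role groups have medians from -1.25 (cargo receptors) to -0.45 (COPI and Arf), and all genes 0.12.

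Of the 4 genes that share only a name stem, none was lower by 2-fold. Sec1 was at 194 in the generated cells and under the floor at 70.8 in the parental cells, at least 2.06-fold higher, and the 3 Sec14l genes lay between log2 differences of -0.02 and 0.44. Without these 4 genes, 36 of 83 members were lower and 1, Copz1, was higher.

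Agreement between probes could be read in 12 members with 2 probes each. In Srp9, Ergic1 and Yipf4 both probes were 2-fold or more lower. The probes of Srp9 gave 221 and 394 in the generated cells and 1394 and 1276 in the parental cells, and those of Ergic1 gave 1750.2 and 938 in the generated cells and 3537 and 2127 in the parental cells. The probes of Yipf4 differed in size, at least 11.7-fold lower in 1 (76.7 in generated and 1094 in parental cells) and 2.02-fold lower in the other (165 in generated and 332 in parental cells). Sec62 had a probe 3.16-fold lower and a brighter probe 1.59-fold lower.

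Both probes were lower in 7 of the 12 genes and higher in 1, Arfgap2, and they ran in opposite directions in 4. Sar1a had the widest gap, 2.89 on the log2 scale. A probe of the class mMC read 3489 in the generated cells and 18663 in the parental cells, 5.35-fold lower, and a probe of the class PH_mM read 4779.8 in the generated cells and 3443 in the parental cells, 1.39-fold higher. The value of Sar1a given above thus averages 2 probes that disagree.

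**Figure D5:**
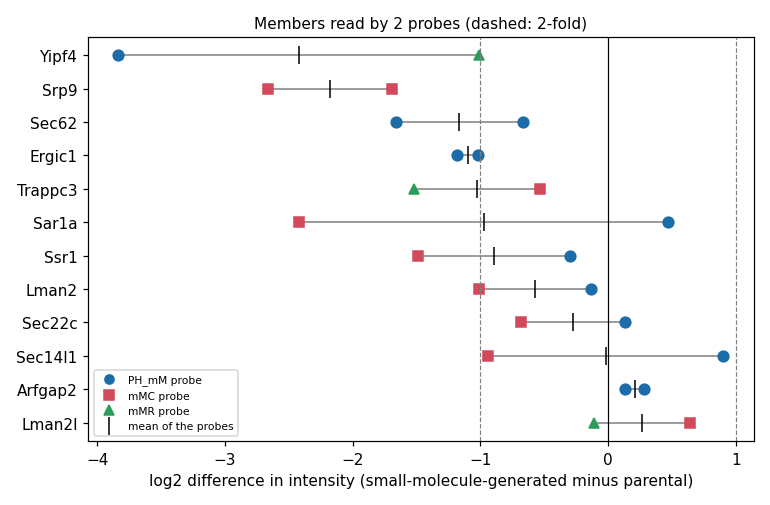
Log2 difference (generated minus parental cells, horizontal axis) of each probe of the 12 members read by 2 probes, with symbols for the class of probe identifier and a tick at the mean. Srp9, Ergic1 and Yipf4 have both probes past the lower 2-fold line, and the probes of Sar1a lie on both sides of 0, at -2.42 and 0.47.

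The size of the difference moved with the class of probe identifier. Of 46 member probes of the class mMC 25 (54.3%) were lower by 2-fold or more, where 26.3% of all mMC probes above the floor were. Of 48 member probes of the class PH_mM 14 (29.2%) were lower, where 18.6% of all such probes were. Of 5 member probes of the class mMR 3 were lower, where 30.3% of all such probes were. The median log2 difference was -1.01 for member probes and -0.0040 for all probes in the class mMC, and -0.30 for member probes and 0.28 for all probes in the class PH_mM. In all 5 members read by a probe of each class the mMC probe gave the lower difference, as it did in 90 of 146 such genes over the whole array. Of the 6 members 8-fold or more lower, 5 (Spcs1, Copz2, Kdelr3, Surf4 and Trappc8) were read by an mMC probe and Tmed3 by a PH_mM probe. The labels do not say what sets the classes apart, and their part in the results was not tested.

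The members were spread unevenly over the range of brightness, with 45 of 87 in the top quartile of mean log2 intensity over all genes above the floor and 5 in the bottom one. Within the top quartile 18 of 45 members (40%) were lower by 2-fold or more, where 19.8% of its genes were, and in the third quartile 13 of 25 (52%), where 24.4% of its genes were. In the second quartile 5 of 12 were lower (25.9% of its genes), and in the bottom one 0 of 5 (20.4% of its genes). The median log2 difference of the members was -0.74 in the top quartile, -1.01 in the third, -0.76 in the second and 0.44 in the bottom one, which holds Sec1 and 4 other members. This split was chosen after seeing the data.

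Other genes of the same route, outside the name stems, were read from a list of 56 genes of which 42 were measured. The list was chosen with earlier results of these data known. Of the 42 genes 18 (42.9%) were lower by 2-fold or more and 2 (4.76%) were higher, with a median log2 difference of -0.64. Over all genes above the floor 22.6% were lower and 22.1% higher, with a median of 0.12. Ostc, a subunit of the oligosaccharyltransferase that adds glycans to chains in the ER, was at 1535 in the generated cells and 13494 in the parental cells, 8.79-fold lower. Ddost, of the same enzyme, was 5.20-fold lower (3124 in generated and 16251 in parental cells) and Stt3a, a catalytic subunit, 2.06-fold lower (1609 in generated and 3315 in parental cells), while Rpn1 was at 14279.9 in the generated cells and 13956 in the parental cells. Uso1, a tether between ER and Golgi, was 6.87-fold lower, with 246 in the generated cells and 1688 in the parental cells.

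The remaining 14 genes of the list lower by 2-fold or more have several roles. Preb, the exchange factor that loads SAR1 with GTP, was 3.10-fold lower (122 in generated and 377 in parental cells) and Tfg, an organiser of ER exit sites, 3.31-fold lower (3852 in generated and 12749 in parental cells). Ctage5, the partner of TANGO1 in collagen export, was 4.21-fold lower, at 1487 in the generated cells and 6255 in the parental cells. Klhl12, an adaptor of the ubiquitin ligase that enlarges COPII coats for collagen, was under the floor at 83.7 in the generated cells and at 221 in the parental cells, at least 2.36-fold lower. Arfgef1, an exchange factor for Arf, was 8.23-fold lower (270.3 in generated and 2224 in parental cells). Genes of like roles did not pass, with log2 differences of -0.89 for the Arf exchange factor Gbf1, -0.22 for the cargo receptor gene Cnih1, and -0.75 and 0.45 for Pdcd6 and Pef1, which work with Klhl12.

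The GTPase genes Rab1a (4.72-fold), Rab2a (2.73-fold) and Rab6a (2.13-fold), the translocation gene Tram1 (2.98-fold), the transcription factor gene Creb3 (4.56-fold) and the tethering genes Nbas (2.34-fold) and Rint1 (2.25-fold) were lower too. Stx18, a SNARE of the ER, and the golgin gene Trip11 were under the floor in the generated cells and at least 2.60-fold and 2.34-fold lower. The higher ones were Gorasp2, a stacking protein of the Golgi, at 1540.2 in the generated cells and 416 in the parental cells (3.71-fold), and Tram2, at 696 in the generated cells and 255 in the parental cells (2.73-fold). Rab1b had a log2 difference of 0.52, and its relative Rab1a one of -2.24.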

How the data were processed

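Total RNA of 2 samples was hybridised to a Phalanx mouse whole genome array with Cy5, per the labels. The deposited values are probe intensities on a linear scale. No source names the normalization by the authors, but both columns had nearly equal quantiles, so a difference in total signal would not be seen. Whether each column is 1 array or an average of replicates was not settled. Platform symbols named 12380 of 13989 probes, with 1609 unnamed; the members were the same 89 with symbols updated through Entrez identifiers and RefSeq.

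Intensities were brought to log2 and averaged over a gene's probes with pandas 2.3.3 and numpy 2.4.6 in Python 3.11.15. A value under the 25th percentile of its column gave a bound, the brighter value over the other column's floor. By the naming rule, members at 2-fold or more are named with their paralogs, beside listed pathway genes at 2-fold or more. Further members were named for completeness after their values were seen. The counting was tested on simulated data with planted differences and less noise than the probe SD given above. That test checked the counting alone and does not measure how reliable the 2-fold calls are. Members, roles and lists were chosen with earlier results of these data known. Promoter motifs and the probe classes were chosen after seeing the data. Alternatives covered normalisation (lowess with statsmodels 0.14.6), probe averaging, an offset, the floor, membership and probe class.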

Additional observations from a re-analysis of the deposited data

How the results depend on the processing

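The count of 36 lower members ranged from 33 (offset of 50) to 41 (lowess centring) over the 12 alternatives fixed with the design that kept the 2-fold rule, and the median difference stayed negative in each. It was -0.91 with lowess centring and -0.89 with the floor at the median. The count of higher members was 1 with lowess centring, with the floor at the median, without the symbols of another role, and with each probe class centred on its own median. Under a 4-fold rule 18 members were lower and 0 higher. Chosen after seeing the data, PH_mM probes alone (floor taken within the class) left 45 members with 13 lower, 2 higher and a median of -0.29, and mMC probes alone left 45 members with 24 lower, 0 higher and a median of -1.01; the cause was not tested. Of the 38 members at 2-fold or more, 32 kept their call in all 7 alternatives run on single genes, and none changed sign. Those that did not were Copz1, Copb2, Golga2, Tmed4, Trappc3 and Sec62, the last with its brighter probe alone (-0.67). No paired analysis was possible because each group holds 1 sample. Without replicates, no value has an error for cultures, and dim genes are limited by the floor.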
